A study of Homo sapiens with 8 samples.

Results

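Translation initiation factors bring the ribosome, the initiator tRNA and the messenger RNA together at the start codon, and elongation factors then move the ribosome along the message. A pair of controlled steps set the rate of initiation: the recycling of eIF2, which delivers the initiator tRNA, and the binding of the eIF4 factors to the cap of the message. Many elongation factor genes and some initiation factor genes encode TOP messages, which start with a C followed by a run of pyrimidines and whose translation is controlled by the growth kinase mTOR. The genes described here are those of the deposited table whose symbol starts with EIF or EEF and a digit, without the EIF4EBP repressors and without antisense genes. This rule found 42 genes among 14645 loci, 9463 of which carry a gene name. The rule picks genes by name only, and a measured value, the highest mean, served only to choose between repeated entries of a symbol.

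MCF10A cells are breast epithelial cells of human origin that grow without limit in culture but form no tumours. Total RNA without ribosomal RNA was read in 8 libraries, 2 for each of 4 groups: the solvent DMSO, 250 nM of the ATR inhibitor AZD6738, irradiation with 20 Gy (IR), and the inhibitor together with irradiation (AZD6738+IR). ATR is the kinase that answers stalled replication forks. Solvent or inhibitor was given 2 hours ahead of irradiation and kept for 3 days, and irradiated cells without the inhibitor carry the label IR, which names no solvent. All groups are 1 cell line in culture medium with horse serum, EGF, hydrocortisone, cholera toxin and insulin. Whether the libraries within a group are separate cultures is not stated, so the p-values below reflect only how these libraries vary, which may be technical.

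Levels are in FPKM (fragments scaled by the length of the transcript and the size of the library), a unit the deposited table does not name, and without counts the depth is unknown and no counting interval can be given. The table total ran from 864305.7 to 969381.1 per library. Shares are given of the slightly smaller total that was left once each repeated symbol kept 1 entry. The 4 most abundant loci, 3 of them the noncoding RNAs RN7SL2, RN7SK and RMRP, held 54.08% to 54.9% of it in unirradiated libraries. Their share was 57.21% and 57.42% for IR, and for AZD6738+IR it was 57.7% in library A and 62.37% in library B, which stands apart. Leaving out library B left 33 factor genes lower than in DMSO, the same number as with it. Of 5 basal and 5 epithelial markers listed, 3 of each had an entry and were present in every library: KRT14, KRT17, TP63, CDH1, EPCAM and KRT8. Their levels differed by group, KRT8 going from 44.8 ± 1.04 FPKM in DMSO to 135 ± 0.0597 FPKM in IR and 323 ± 18.5 FPKM in AZD6738+IR. In the same groups KRT17 went from 1150 ± 19.8 to 1710 ± 0.777 and 3240 ± 175 FPKM. KRT14 went from 427 ± 24.9 to 509 ± 20.4 and 639 ± 14.4 FPKM, and CDH1 from 41.2 ± 1.69 to 86 ± 1.62 and 102 ± 3.75 FPKM. TP63 went down from 11.9 ± 0.338 to 7.65 ± 0.465 and 4.98 ± 0.407 FPKM, and EPCAM from 26.6 ± 0.406 to 19.4 ± 0.642 and 18.6 ± 0.645 FPKM. The part of these markers in the results below was not tested. The listed markers of receptor-positive luminal, blood, fibroblast and endothelial cells had no entry by symbol and were not analysed here. All 42 genes passed the filter of a mean of at least 1 FPKM, with EIF4E3 nearest to it at a mean of 1.03 FPKM. Tests were run with limma on log2(FPKM + 1) over all 12809 tested loci, and a gene is said to rise or fall where its Benjamini-Hochberg adjusted p is under 0.05. A level given with ± is a mean and SD over the libraries of the group (n = 2). Folds divide such means, while log2 fold changes carry their SE, lie on the log2(FPKM + 1) scale and are too small for weakly expressed genes.

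The bases at the annotated transcription starts of some of these genes are shown because they carry the TOP feature against which the changes are set out at the end. RefSeq promoters on GRCh38.p14 were found for 34 of the 42 genes. Each line gives 40 bases before the annotated start and 20 bases from it, 5′ to 3′ on the strand of the gene. In the first set the capitals mark the unbroken run of C and T that begins with the C at the start. These are EEF2 (chr19:3985444-3985503, minus strand), EEF1A1 (chr6:73521013-73521072, minus strand), EEF1B2 (chr2:206159855-206159914, plus strand, the second of 2 listed starts), EIF4B (chr12:53006416-53006475, plus strand), EIF2A (chr3:150546747-150546806, plus strand), EIF2S3 (chrX:24054916-24054975, plus strand), EIF3D (chr22:36529147-36529206, minus strand) and EIF3K (chr19:38619148-38619207, plus strand).
EEF2: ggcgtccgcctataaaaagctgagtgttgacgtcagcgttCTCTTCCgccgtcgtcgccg
EEF1A1: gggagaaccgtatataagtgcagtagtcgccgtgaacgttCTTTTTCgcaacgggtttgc
EEF1B2: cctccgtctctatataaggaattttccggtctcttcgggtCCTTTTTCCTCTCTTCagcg
EIF4B: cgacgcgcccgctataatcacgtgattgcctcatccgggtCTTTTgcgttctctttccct
EIF2A: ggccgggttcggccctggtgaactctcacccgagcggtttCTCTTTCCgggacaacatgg
EIF2S3: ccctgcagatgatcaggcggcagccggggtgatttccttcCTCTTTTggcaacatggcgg
EIF3D: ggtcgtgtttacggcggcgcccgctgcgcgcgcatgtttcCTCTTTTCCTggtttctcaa
EIF3K: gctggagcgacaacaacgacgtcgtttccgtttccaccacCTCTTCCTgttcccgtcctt

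The second set shows genes whose annotated start is not a C with pyrimidines after it, and here the capital marks the start base alone. These are EIF6 (chr20:35284698-35284757, minus strand, 1 of 2 listed starts), EIF4G1 (chr3:184314566-184314625, plus strand, 1 of 3), EIF1 (chr17:41688845-41688904, plus strand) and EIF2B2 (chr14:75002881-75002940, plus strand).
EIF6: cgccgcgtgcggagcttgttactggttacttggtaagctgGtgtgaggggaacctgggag
EIF4G1: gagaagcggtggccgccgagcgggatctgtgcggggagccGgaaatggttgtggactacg
EIF1: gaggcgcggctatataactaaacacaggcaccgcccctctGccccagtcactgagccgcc
EIF2B2: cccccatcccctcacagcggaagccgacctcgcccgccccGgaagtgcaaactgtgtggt

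In DMSO the levels of the 42 genes ran over a wide range. EEF2, the factor that moves the ribosome by 1 codon after each peptide bond, was highest at 1718 ± 1.59 FPKM, followed by EEF1A1, which delivers the charged tRNA, at 1019 ± 44.5 FPKM. EIF3E, a subunit of eIF3, at 549.8 ± 21.9 FPKM and EEF1B2, the exchange factor subunit for eEF1A, at 526.5 ± 16.6 FPKM followed, and their library values overlapped. At the other end stood EIF4E3 at 1.07 ± 0.0112 FPKM and EEF1A2, the eEF1A form of muscle and neurons, at 0.583 ± 0.117 FPKM. Next above them and close together were EEF2K at 3.58 ± 0.0297 FPKM, EIF4E, the cap-binding protein, at 3.59 ± 0.598 FPKM and EIF1AD at 3.61 ± 0.0299 FPKM. Summed over the 42 genes, the level was 7370.3 and 7523.9 FPKM in the DMSO libraries and 7397.1 and 7501.6 FPKM with the inhibitor alone. The sum was 5970.4 and 5995.9 FPKM after irradiation and 3486.7 and 3367.2 FPKM after irradiation with the inhibitor. The irradiated libraries thus lay below all others, and the AZD6738+IR libraries lay lowest. The 6 elongation factors held 47.3% to 48% of that sum without irradiation, 50% and 50.6% in IR, and 40.5% and 40.4% in AZD6738+IR. In bulk RNA, fewer cells and less RNA per cell cannot be told apart, and all values here are relative to the RNA of the library.

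**Figure D1:**
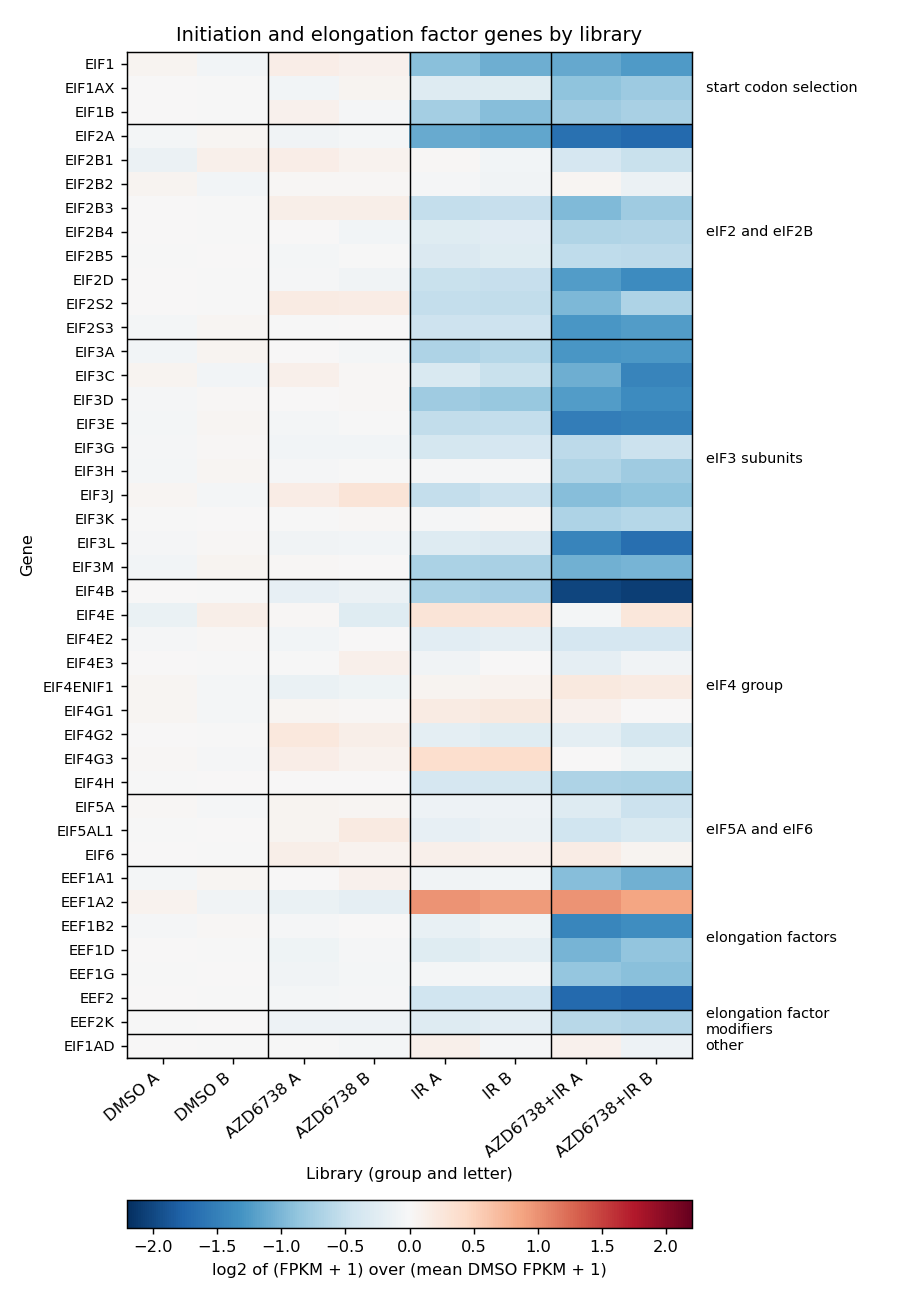
Colour shows log2 of (FPKM + 1) in each library over the DMSO mean of the gene, for the 42 genes (rows, grouped by role) and 8 libraries (columns). The DMSO and AZD6738 columns are near white, and the AZD6738+IR columns are darkest, with EIF4B near the end of the scale and EEF1A2 the deepest red.

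The inhibitor alone was compared with DMSO to give its effect without radiation. None of the 42 genes passed the threshold with limma, against 0.148% of all tested loci (0.0937% higher and 0.0546% lower), and 5 had an unadjusted p under 0.05. The lowest adjusted p was that of EIF4B, 0.194, a gene for a helper of the eIF4A helicase that stood at 238.8 and 247.7 FPKM against 272.3 and 269.4 FPKM in DMSO. The median log2 fold change of the 42 genes was 0, as it was over all loci.

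Radiation alone was compared with DMSO. Of the 42 genes, 26 fell and 3 rose, with a median log2 fold change of -0.26. Over all tested loci 61.8% passed the threshold. By direction, 38% of all loci were lower and 23.7% were higher, with a median of -0.1. The 3 that rose were EIF4G1, EIF4G3 and EEF1A2. EEF1A2 reached the filter only through the irradiated groups, so its rise is counted as a description. Under quantile normalization the split was 22 lower and 6 higher. The falls were deepest for EIF2A, EIF1 and EIF1B, and the abundant elongation factors EEF1A1 and EEF1G did not pass.

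Radiation under the inhibitor was compared with the inhibitor alone, which gives the radiation effect in ATR-inhibited cells from other libraries than the comparison above. Here 35 of the 42 genes fell and 2 rose, EEF1A2 and EIF4ENIF1, with a median log2 fold change of -0.74. The rise of EEF1A2 is again a description, since it reached the filter only through the irradiated groups. Over all loci 72.4% passed, with 45.2% lower, 27.1% higher and a median of -0.15. Of the genes that fell, 17 did so by more than 1 on the log2 scale, against 1 with radiation alone, and over all 12809 loci these counts were 1036 and 363.

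AZD6738+IR was also compared with IR, to give what the inhibitor adds in irradiated cells, and with DMSO. Against IR, 32 genes fell and none rose, with a median of -0.38, where 51.1% of all loci passed, 31.5% being lower and 19.6% higher, with a median of -0.07. EIF1B at 0.1 and EIF4ENIF1 at 0.13 on the log2 scale were the highest values against IR, with adjusted p = 0.312 and 0.0629 by limma, and EIF4ENIF1 passed as higher under all 3 other scalings of the libraries. Against DMSO, 33 fell and 2 rose, with a median of -0.73. The 2 were EIF4ENIF1 and EEF1A2, and EEF1A2 reached the filter only through the irradiated groups. Over all loci 72.7% passed, 45.6% being lower and 27.1% higher, with a median of -0.16. The 7 genes that did not pass against DMSO were EIF1AD, EIF2B2, EIF4E, EIF4E3, EIF4G1, EIF4G3 and EIF6. The comparisons that share the AZD6738+IR or the DMSO libraries are not independent of each other. With every library scaled to the same total without its 4 most abundant loci, 33 genes were again lower and 4 were higher than in DMSO. Against IR that scaling left 27 lower and 1 higher, quantile normalization left 28 lower and 2 higher, and median centring left 30 lower and 1 higher.

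**Figure D2:**
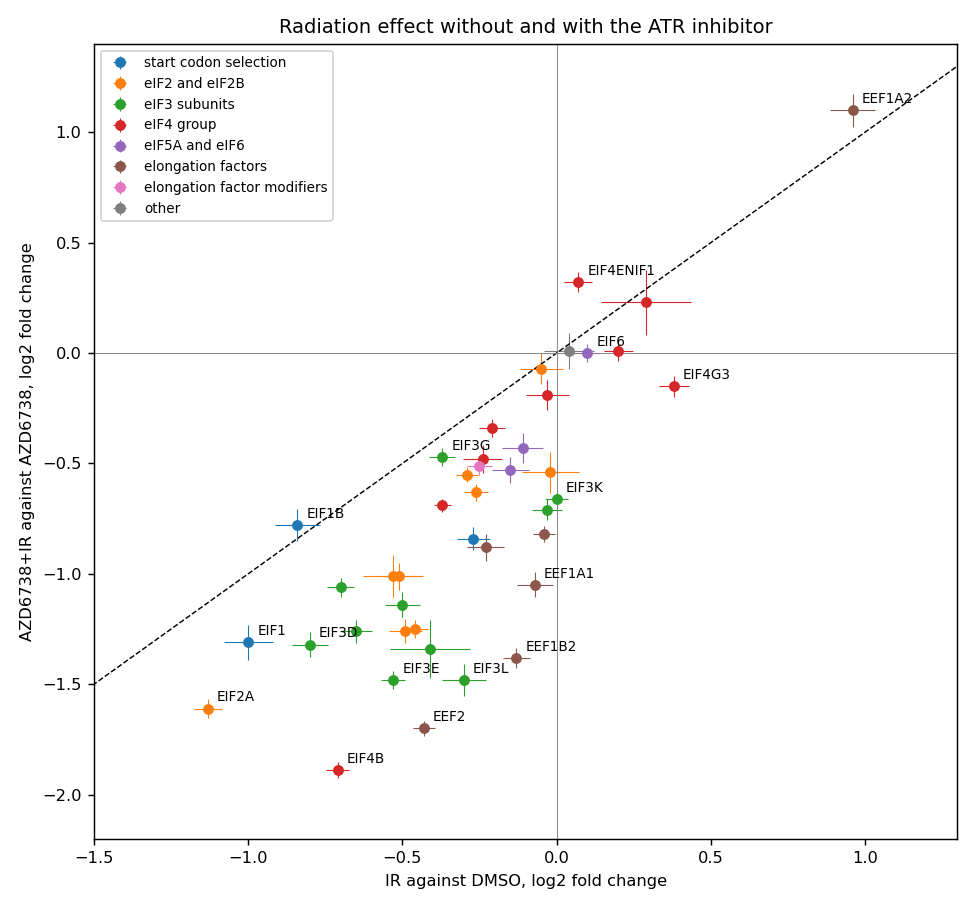
Each point is a gene, with the log2 fold change of IR against DMSO on the x axis and of AZD6738+IR against AZD6738 on the y axis, bars showing ± SE and the dashed line marking equal values. Most points lie below the line, with EEF1A1, EEF1B2 and EIF3K near 0 on the x axis and at -1.05, -1.38 and -0.66 on the y axis.

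Of the 6 elongation factors, 3 fell with radiation alone and 5 fell in AZD6738+IR against IR, where 38% and 31.5% of all loci were lower. The 1 that rose with radiation alone, EEF1A2, reached the filter only through the irradiated groups and is described below. EEF2 (chromosome 19, 3976056 to 3985469, GRCh38, protein coding) stood at 1719 and 1717 FPKM in DMSO, 1662 and 1692 FPKM in AZD6738, 1267 and 1278 FPKM in IR, and 526 and 504.7 FPKM in AZD6738+IR. Both irradiated groups lay below the others with no overlap, and the combination lay lowest. EEF2 fell 1.35-fold with radiation alone (log2 fold change -0.43 ± 0.035, limma adjusted p = 0.000167) and was 2.47-fold lower in AZD6738+IR than in IR (-1.3 ± 0.035, adjusted p = 5.83e-06).

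EEF1A1 (chromosome 6, 73515750 to 73523797) was at 987.9 and 1051 FPKM in DMSO, 1031 and 1087 FPKM in AZD6738, 968.9 and 977.1 FPKM in IR, and 531.6 and 489.9 FPKM in AZD6738+IR. The IR libraries lay just below those of DMSO, while the AZD6738+IR libraries lay far below every other library. The change was -0.07 ± 0.057 with radiation alone (limma adjusted p = 0.346) and -0.93 ± 0.057 for AZD6738+IR against IR (adjusted p = 0.000114). EEF1A1 has many near-identical processed copies in the genome, so its value is uncertain to the extent that reads were shared with them. EEF1G, which anchors the exchange complex of eEF1A, followed the same course, at 195.6 and 196.6 FPKM in DMSO, 189.8 and 190.5 FPKM in IR and 108.5 and 103.5 FPKM in AZD6738+IR. Its change with radiation alone was -0.04 ± 0.035, and its fall in AZD6738+IR against IR was -0.84 ± 0.035 (limma adjusted p = 3.16e-05).

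EEF1B2 (chromosome 2, 206159585 to 206162928) was at 514.8 and 538.3 FPKM in DMSO, 517.2 and 526.8 FPKM in AZD6738, 470.2 and 492.8 FPKM in IR, and 194.3 and 204.6 FPKM in AZD6738+IR. The IR libraries lay slightly below DMSO, and the combination had a ratio of 0.379 to the DMSO mean. Its call with radiation alone (-0.13 ± 0.045) was lost under 12 of 19 alternatives, whereas the fall against IR was -1.27 ± 0.045 (limma adjusted p = 1.89e-05). EEF1D, another exchange factor subunit, fell from 105 ± 0.745 FPKM to 89.2 ± 2.31 FPKM in IR and 54.4 ± 4.3 FPKM in AZD6738+IR. Its call in IR (-0.23 ± 0.06) was lost without DMSO A, DMSO B or IR A (limma adjusted p from 0.0583 to 0.0852) and under 2 other scalings. The table holds 2 entries for EEF1D, of which the one with the higher mean was used.

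EEF1A2 (chromosome 20, 63488012 to 63499322) moved against the other elongation factors. It was at 0.666 and 0.5 FPKM in DMSO, 0.438 and 0.374 FPKM in AZD6738, 2.13 and 2.04 FPKM in IR, and 2.13 and 1.9 FPKM in AZD6738+IR. The irradiated libraries lay above the others with no overlap and did not separate by inhibitor. EEF1A2 reached the filter of 1 FPKM only through the irradiated groups, so that it had to differ once tested, and its fitted log2 fold change in IR, 0.96 ± 0.074, is given as a description. AZD6738+IR against IR gave -0.03 ± 0.074. EEF1A1 and EEF1A2 encode closely similar proteins for the same step, and the ratio of their FPKM went from 1483 and 2102 in the DMSO libraries and 2354 and 2905 in the AZD6738 libraries, where it rests on an EEF1A2 level under 1 FPKM and is loosely fixed, to 455.1 and 479.1 in IR and 249.2 and 258.5 in AZD6738+IR. EEF2K, the kinase that switches eEF2 off by phosphorylation, fell together with EEF2, from 3.58 ± 0.0297 FPKM in DMSO to 2.84 ± 0.101 FPKM in IR and 1.97 ± 0.0332 FPKM in AZD6738+IR.

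**Figure D3:**
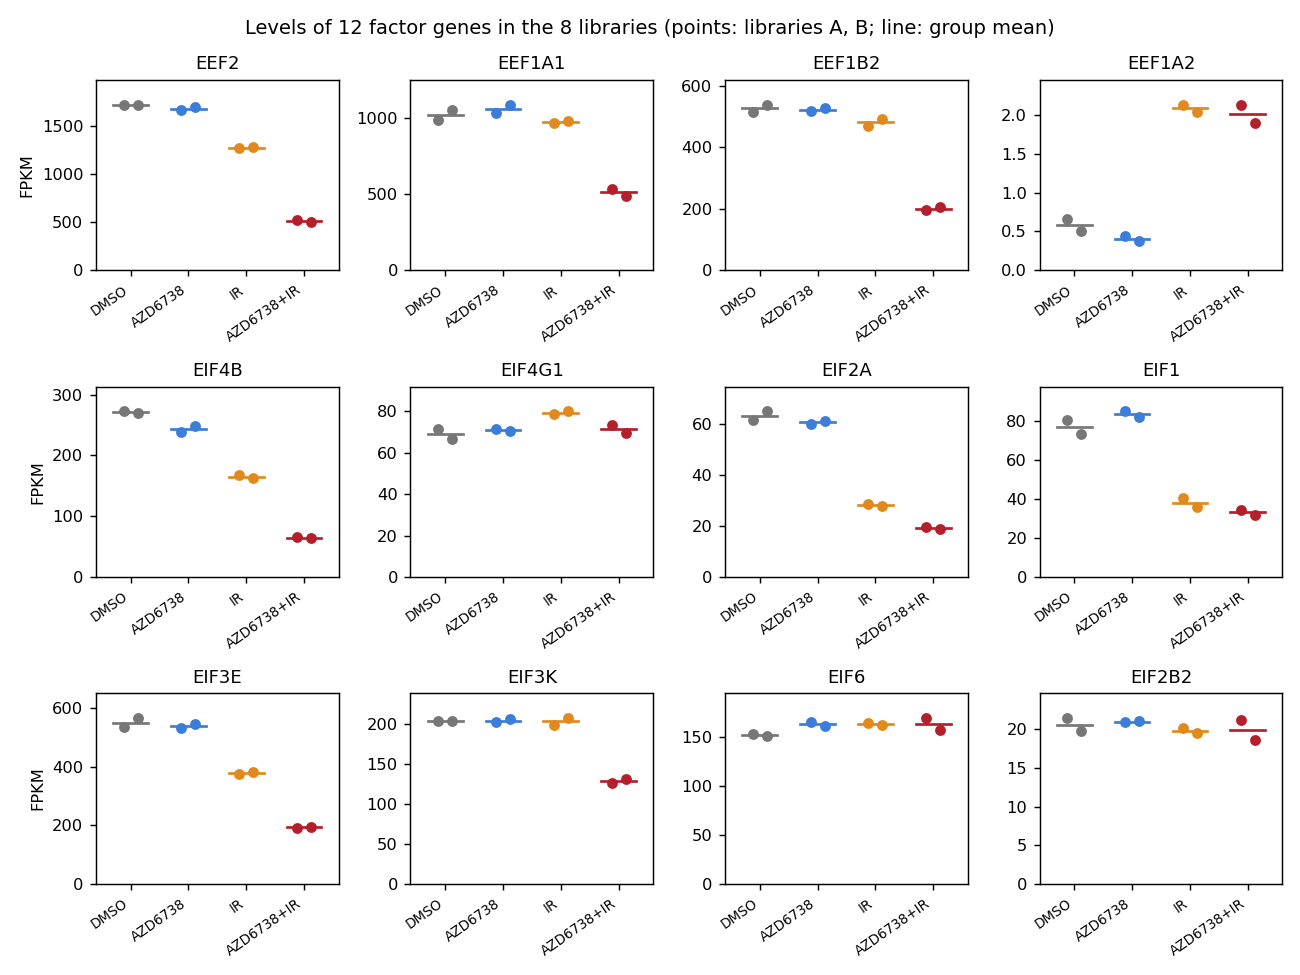
FPKM of 12 genes in the 8 libraries, with a point per library (A left, B right), a line at the mean of each group and each axis starting at 0. EEF1A1, EEF1B2 and EIF3K drop in AZD6738+IR but hardly in IR, EIF2A and EIF1 drop in both irradiated groups, EEF1A2 rises in both, and EIF6 and EIF2B2 stay near their DMSO level.

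In the cap-binding eIF4 group the members parted. EIF4B (chromosome 12, 53006158 to 53042209), which stimulates the helicase that unwinds the start of the message, was at 272.3 and 269.4 FPKM in DMSO, 238.8 and 247.7 FPKM in AZD6738, 167.1 and 162.9 FPKM in IR, and 65.9 and 63.8 FPKM in AZD6738+IR. Each group lay below the one before it with no overlap. EIF4B had the largest fall of the 42 genes against DMSO in AZD6738+IR, 4.18-fold (-2.05 ± 0.036, limma adjusted p = 6.26e-07), and its fall with radiation alone was 1.64-fold. EIF4H, which acts on the same helicase, fell less, from 173.1 ± 0.411 FPKM in DMSO to 133.3 ± 1.11 FPKM in IR and 107.1 ± 0.618 FPKM in AZD6738+IR.

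The scaffolds of the cap complex fell less than EIF4B or not at all. EIF4G1 (chromosome 3, 184314495 to 184335358), the main scaffold, was at 71.3 and 66.5 FPKM in DMSO, 71.3 and 70.3 FPKM in AZD6738, 78.5 and 79.9 FPKM in IR, and 73.4 and 69.6 FPKM in AZD6738+IR. The IR libraries lay highest, a rise of 0.2 ± 0.047 (limma adjusted p = 0.0117) that was lost without DMSO B or without IR B (adjusted p = 0.055 and 0.0633), and AZD6738+IR overlapped DMSO. In AZD6738+IR the change of EIF4G1 from DMSO was 0.05 ± 0.047, but it passed as higher under all 3 other scalings of the libraries, with log2 fold changes of 0.13 to 0.2. Against IR, EIF4G1 was called as lower (-0.15 ± 0.047, limma adjusted p = 0.0438), a call kept in 10 of 19 alternatives. The ratio of EIF4G1 to EIF4B in FPKM was 0.262 and 0.247 in DMSO, 0.298 and 0.284 in AZD6738, 0.47 and 0.49 in IR, and 1.11 and 1.09 in AZD6738+IR. EIF4G3, a second scaffold, rose from 11.7 ± 0.334 FPKM in DMSO to 15.6 ± 0.143 FPKM in IR and was at 11.4 ± 0.576 FPKM in AZD6738+IR, a change against IR of -0.43 ± 0.048 (limma adjusted p = 0.000905). Its fall in AZD6738+IR against AZD6738 (-0.15 ± 0.048, limma adjusted p = 0.0317) was kept in 10 of 19 alternatives. EIF4G2, a scaffold without the cap-binding arm, fell by 0.24 on the log2 scale with radiation. That call was lost without any single DMSO or IR library and under quantile normalization (limma adjusted p = 0.066). In AZD6738+IR it fell against DMSO (-0.3 ± 0.064, limma adjusted p = 0.006), a call lost only under quantile normalization (0.0621). It also fell against AZD6738 (-0.48 ± 0.064, adjusted p = 0.000806), in all 19 alternatives, and did not pass against IR (-0.06 ± 0.064).

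Among the cap-binding proteins, EIF4E was at 3.16 and 4.01 FPKM in DMSO, 3.64 and 2.79 FPKM in AZD6738, 4.6 and 4.54 FPKM in IR, and 3.45 and 4.43 FPKM in AZD6738+IR. The IR libraries lay above all others and the other groups overlapped, and EIF4E passed in no comparison (0.29 ± 0.147 in IR, limma adjusted p = 0.141). EIF4E2, a related cap-binding protein that represses translation, fell from 16.7 ± 0.503 FPKM in DMSO to 14.3 ± 0.239 FPKM in IR and 12.7 ± 0.0124 FPKM in AZD6738+IR, and its call in IR was lost under quantile normalization. EIF4ENIF1, which carries eIF4E into the nucleus, was higher in AZD6738+IR than in DMSO, at 5.76 ± 0.138 against 4.89 ± 0.257 FPKM (0.2 ± 0.045, limma adjusted p = 0.00851). EIF4E3, at 0.794 to 1.22 FPKM over all libraries, passed only against AZD6738 in AZD6738+IR, at -0.19 ± 0.07, a call lost under 10 of the 17 alternatives in which it was tested.

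eIF3 is the large complex that holds the small ribosomal subunit ready for initiation. All 10 of its subunits in the table fell in AZD6738+IR against DMSO, against AZD6738 and against IR, and 8 fell with radiation alone. Over all loci the lower share was 45.6%, 45.2%, 31.5% and 38% in these comparisons. EIF3E went from 534.4 and 565.3 FPKM in DMSO to 376.2 and 382.8 FPKM in IR and 190.7 and 195.1 FPKM in AZD6738+IR. EIF3L went from 191.8 and 201 FPKM to 161.2 and 156.9 FPKM and then to 71.3 and 61.5 FPKM, the largest fall of a subunit against DMSO (-1.55 ± 0.072, limma adjusted p = 1e-05) and against IR (-1.25 ± 0.072, adjusted p = 9.4e-05). For both genes these groups did not overlap. The call of EIF3L with radiation alone (-0.3 ± 0.072) was lost without DMSO B or IR B (adjusted p = 0.0644 and 0.0629). EIF3D, the subunit that can bind the cap itself, went from 265.4 ± 7.23 FPKM in DMSO to 151.5 ± 3.45 FPKM in IR and 107 ± 8.42 FPKM in AZD6738+IR. It had the largest fall of a subunit with radiation alone (-0.8 ± 0.058, limma adjusted p = 0.000118).

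The subunits differed in when they fell. EIF3K was at 203.6 and 203.8 FPKM in DMSO, 202.7 and 206.5 FPKM in AZD6738, 199.7 and 207.7 FPKM in IR, and 126.5 and 131.9 FPKM in AZD6738+IR. EIF3H was at 271.7 and 285.4 FPKM in DMSO, 274.6 and 272.3 FPKM in IR, and 175.1 and 161.9 FPKM in AZD6738+IR. For both, IR overlapped DMSO and the AZD6738+IR libraries lay below all others, with changes against IR of -0.65 ± 0.037 and -0.7 ± 0.048 (limma adjusted p = 9.4e-05 and 0.000173). EIF3K was called as higher in IR under quantile normalization, at 0.11 (adjusted p = 0.0465), against 0 as reported. EIF3D, EIF3M and EIF3G had the larger part of their fall with radiation alone. The parts were closer for EIF3A (-0.65 with radiation alone and -0.62 against IR) and EIF3J (-0.5 and -0.4). EIF3M fell by 0.7 on the log2 scale with radiation alone, to 114.6 ± 0.991 FPKM, and was at 90.3 ± 1.39 FPKM in AZD6738+IR. EIF3G, a subunit of the part that aids scanning, went from 165.5 ± 3.02 FPKM to 127.5 ± 1.58 FPKM in IR and 114.6 ± 5.56 FPKM in AZD6738+IR. Its call against IR, at -0.15 ± 0.042, was lost under 9 of 19 alternatives, with adjusted p up to 0.262 under quantile normalization.

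EIF3A, the large core subunit, fell 1.58-fold with radiation alone and 2.44-fold in AZD6738+IR, to 66.8 ± 0.62 FPKM. EIF3C, another core subunit with a near-identical copy, EIF3CL, fell 2.41-fold in AZD6738+IR, and its call with radiation alone (-0.41 ± 0.13) was lost when any 1 of the 6 libraries outside AZD6738+IR was left out (adjusted p from 0.0561 to 0.153). EIF3J, a loosely bound subunit, was at 34 and 37.1 FPKM with the inhibitor against 31 and 29.3 FPKM in DMSO (0.23 ± 0.056, limma adjusted p = 0.204), and fell to 21 ± 0.642 FPKM in IR and 15.6 ± 0.418 FPKM in AZD6738+IR.

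Genes of eIF2 and its exchange factor eIF2B, the target of the integrated stress response, were grouped with EIF2A and EIF2D, which belong to neither. Of these 9 genes, 7 fell with radiation alone and 8 fell in AZD6738+IR against each of DMSO, AZD6738 and IR. The lower share of all loci was 38% with radiation alone and 45.6%, 45.2% and 31.5% in the other comparisons. EIF2A (chromosome 3, 150546678 to 150584242), a factor apart from the eIF2 complex that can bring initiator tRNA to some messages, was at 61.5 and 65 FPKM in DMSO, 60 and 61.4 FPKM in AZD6738, 28.8 and 28 FPKM in IR, and 19.6 and 18.7 FPKM in AZD6738+IR. The irradiated groups lay apart from the others and from each other. Its fall with radiation alone was the largest of the 42 genes, 2.23-fold (-1.13 ± 0.044, limma adjusted p = 2.32e-05), and it reached 3.3-fold in AZD6738+IR. EIF2D, also a factor for tRNA delivery outside the complex, fell 1.42-fold in IR and 2.53-fold in AZD6738+IR.

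Of the eIF2 subunits, EIF2S3 (eIF2 gamma) was at 173.6 and 185 FPKM in DMSO, 130.5 and 130.1 FPKM in IR, and 73.3 and 76.1 FPKM in AZD6738+IR, with no overlap. EIF2S2 (eIF2 beta) was at 148.8 and 147.3 FPKM in DMSO, 167.5 and 165.9 FPKM in AZD6738, 103.1 and 101.2 FPKM in IR, and 73.9 and 91.8 FPKM in AZD6738+IR. Its AZD6738+IR libraries lay far apart, and its call against IR (-0.31 ± 0.096, limma adjusted p = 0.0396) was lost under 11 of 19 alternatives, among them leaving out IR B or IR A (0.115 and 0.137) and each library of DMSO and AZD6738 (0.0664 to 0.0671). The eIF2B subunits parted: EIF2B3 fell from 15.8 ± 0.206 FPKM to 10.8 ± 0.118 FPKM in IR and 8.18 ± 0.806 FPKM in AZD6738+IR, and EIF2B4 and EIF2B5, the catalytic epsilon subunit, fell 1.63-fold and 1.52-fold in AZD6738+IR. EIF2B1, the regulatory alpha subunit, did not pass with radiation alone (-0.02 ± 0.093) and fell against IR in AZD6738+IR, at -0.4 ± 0.093, a call lost without IR A (adjusted p = 0.0713) or without AZD6738+IR B (0.0631). EIF2B2 was at 18.7 to 21.4 FPKM in all 8 libraries and passed in no comparison.

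Among the factors of start codon choice, EIF1 and EIF1B fell with radiation and did not pass between AZD6738+IR and IR. EIF1 (chromosome 17, 41688885 to 41692668), which keeps the scanning ribosome from starting at wrong codons, was at 80.5 and 73.3 FPKM in DMSO, 85 and 82 FPKM in AZD6738, 40.3 and 35.8 FPKM in IR, and 34.6 and 31.7 FPKM in AZD6738+IR. Its close relative EIF1B was at 15.4 and 15.4 FPKM in DMSO, 16.4 and 15.1 FPKM in AZD6738, 8.72 and 7.59 FPKM in IR, and 8.52 and 9.01 FPKM in AZD6738+IR. Both irradiated groups lay below the others for each gene, and the irradiated groups overlapped for EIF1B. The fall with radiation alone was 2.02-fold for EIF1 and 1.88-fold for EIF1B (limma adjusted p = 0.00016 and 0.00021), and AZD6738+IR against IR gave -0.19 ± 0.079 and 0.1 ± 0.072 (adjusted p = 0.0901 and 0.312). EIF1AX, which works with EIF1, fell from 17.4 ± 0.031 FPKM to 14.2 ± 0.203 FPKM in IR and 9.24 ± 0.517 FPKM in AZD6738+IR.

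EIF6 (chromosome 20, 35278911 to 35284985), which keeps the large ribosomal subunit from joining too early, was at 152.4 and 150.8 FPKM in DMSO, 164.9 and 160.8 FPKM in AZD6738, 163.7 and 162.3 FPKM in IR, and 169 and 157.4 FPKM in AZD6738+IR. It passed in no comparison as reported (0.11 ± 0.042 in AZD6738+IR against DMSO, limma adjusted p = 0.0659), but was called as higher than in DMSO under all 3 other scalings, at 0.19 to 0.22 in AZD6738+IR and 0.11 to 0.17 in IR. EIF5A, which helps the ribosome through proline stretches, was at 226.5 ± 7.42 FPKM in DMSO, 209.1 ± 0.442 FPKM in IR and 174.5 ± 16.5 FPKM in AZD6738+IR. EIF5A fell in AZD6738+IR against DMSO (-0.38 ± 0.066, limma adjusted p = 0.00268), as did EIF5AL1, a near-identical copy whose reads may be shared with it (-0.39 ± 0.06, adjusted p = 0.00152). EIF1AD, a protein with an eIF1A-like domain, was at 3.26 to 3.98 FPKM in all libraries and passed in no comparison.

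The changes were also set out by the annotated start, a feature the naming rule did not use and a split chosen after the values were seen. A TOP-like start was counted where the annotated start base is a C and the next 4 bases are each C or T, on the strand of the gene, at any start listed for it. Of the 34 genes with a promoter entry, 10 have such a start (EEF1A1, EEF1B2, EEF2, EIF2A, EIF2D, EIF2S3, EIF3D, EIF3K, EIF3M and EIF4B), or 29.4%, against 5.14% of all 27305 genes in the promoter table and 7.64% of the 6372 tested genes with an entry. All 10 fell in AZD6738+IR against IR and against DMSO, with medians of -0.8 and -1.3 and a range of -2.05 to -0.65 against DMSO. Of the 24 genes with another start, 15 fell against IR and 16 fell against DMSO, with medians of -0.25 and -0.41, where 31.5% and 45.6% of all loci were lower. With radiation alone the medians were -0.47 and -0.18, and EEF1A1 and EIF3K were the members of the first set that did not pass. The 2 sets also differed in level. The lowest DMSO mean among the 10 genes was 59.9 FPKM (EIF2D), while the 24 ran from 1.07 FPKM (EIF4E3) to 226.5 FPKM (EIF5A). Log2 fold changes on this scale are too small for weakly expressed genes, and the part of level in these medians was not tested.

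The 8 genes without an entry, such as EIF3E, EIF3L and EEF1A2, had a median of -0.89 against DMSO. EEF1G, often counted as a TOP message, has an A at its RefSeq start and stands in the second set. An annotated start need not be the start used in these cells. In the same comparison 32 of 33 ribosomal protein genes with a TOP-like start fell, with a median of -0.84, but so did 54 of all 55 ribosomal protein genes in the table, with a median of -0.85. Of the other named genes, 260 of 444 with such a start fell, with a median of -0.37, and 2712 of 5850 without it fell, with a median of -0.14.

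**Figure D4:**
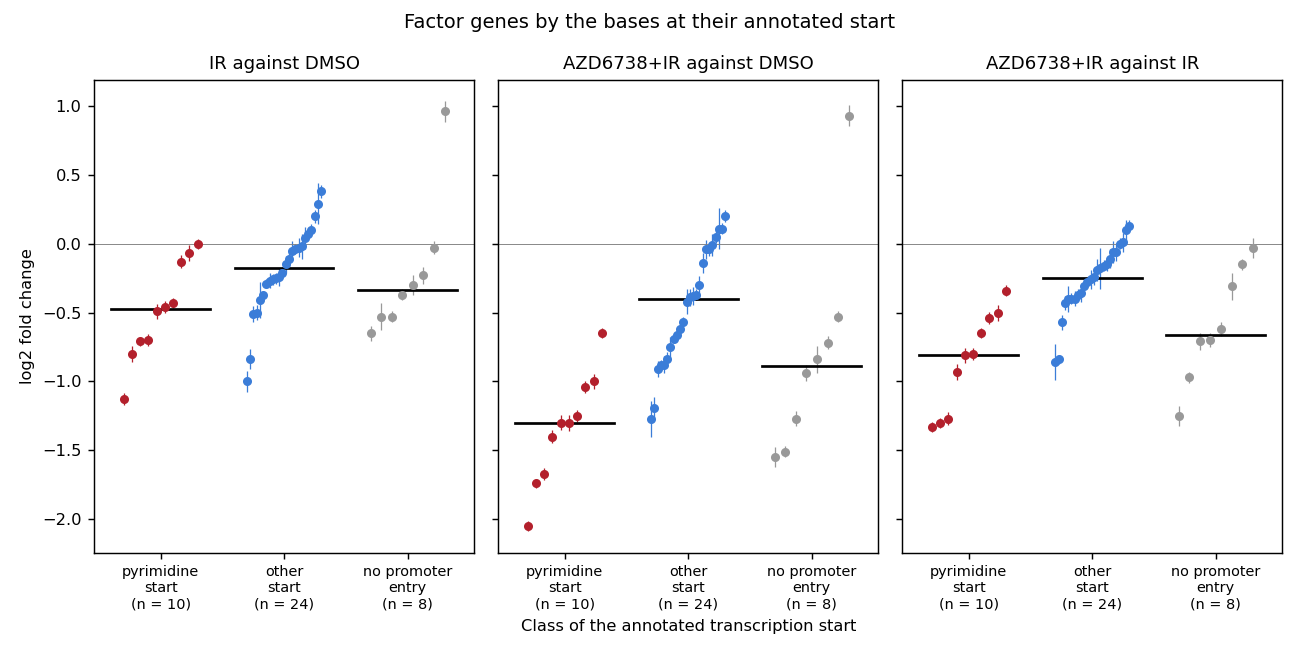
Each point is 1 of the 42 genes with its log2 fold change ± SE, in 3 comparisons, by the class of its annotated start, with a black line at the median. The 10 genes with a pyrimidine start all lie below 0 in both AZD6738+IR panels, with medians of -1.3 and -0.8, while the 24 with another start reach from below -1 to above 0 against DMSO.

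Other genes of the pathway were read from a list of regulators and partners written with earlier results of these data known. Of 28 listed, 19 had an entry, of which 7 fell and 2 rose with radiation alone and 13 fell and 3 rose in AZD6738+IR against DMSO. Over all loci 38% were lower and 23.7% higher with radiation alone, and 45.6% were lower and 27.1% higher in AZD6738+IR, so the count with radiation alone is near or below that of all loci. EIF4EBP1, the repressor that binds eIF4E when mTOR is inactive, went from 210 ± 24.3 FPKM in DMSO to 37.7 ± 4.21 FPKM in IR and 19.9 ± 1.31 FPKM in AZD6738+IR. PDCD4, an inhibitor of the eIF4A helicase, was at 25.6 ± 0.0637, 27.1 ± 0.221 and 17.2 ± 2.12 FPKM in the same groups. TPT1, a TOP message, was at 486 ± 25.6, 470 ± 6.68 and 358 ± 6.27 FPKM. PPP1R15A, the phosphatase subunit that restores eIF2 after stress, rose in AZD6738+IR to 41.2 and 38.9 FPKM, against 16 and 14 FPKM in DMSO and 14.3 and 14.7 FPKM in IR (1.4 ± 0.068 on the log2 scale against IR, limma adjusted p = 5.49e-05). ABCE1, which recycles ribosomes, fell from 44.7 ± 0.747 FPKM to 29.4 ± 0.506 FPKM in IR and 14.8 ± 0.725 FPKM in AZD6738+IR. Both termination factors with an entry, ETF1 and GSPT1, fell in IR and in AZD6738+IR, and of 4 mitochondrial translation factors none fell and GFM2 rose with radiation alone (0.5 ± 0.055, limma adjusted p = 0.00053), and 2 fell and none rose in AZD6738+IR against DMSO. MKNK2 and PABPC1 had no entry by symbol and were not analysed here.

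Of 63 factor symbols sorted by role, 22 had no entry and were not analysed here, among them the helicases EIF4A1 and EIF4A2, the alpha subunit EIF2S1, the kinases EIF2AK1, EIF2AK2, EIF2AK3 and EIF2AK4, and EIF5 and EIF5B. By the GENCODE annotation 20 of the 42 genes overlap another protein-coding gene, 3 of them on the same strand (EEF1G, EIF4E3 and EIF6), and the deposited loci can merge neighbours, so that these values may hold reads of both genes.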

How the data were processed

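RNA of 8 MCF10A libraries was measured, 2 in each of 4 groups taken from the treatment in the labels. The tools named by the submitters' processing notes are StringTie 1.3.4d, HISAT2 2.0.4 and FastQC, with the human build hg38 and no settings. A single filtered table was deposited by the authors, with values read here as FPKM (scaled to transcript length and library size). That unit is an assumption, made because values are fractional and library totals differ, and TPM cannot be told apart. FPKM scales each value to the library total, so a few abundant RNAs shift all others. Columns were matched to groups by name, with Control taken as DMSO, and carry the letters A and B, not the replicate numbers of the labels. Of the per-library columns, 0 were left without a group, and no replicate pair was identical.

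Repeated symbols (217) kept the entry with the highest mean, which left 14645 of 14944 rows. The 12809 loci whose mean reached 1 FPKM were fitted on log2(FPKM + 1) in R 4.3.3 with limma 3.58.1, with 1 mean per group over all 8 libraries, an intensity trend, 4 residual and 1.79 prior degrees of freedom, two-sided tests and Benjamini-Hochberg adjustment per comparison. The fit was tested on data simulated with independent normal noise, which cannot show whether its p-values hold if the libraries of a group are not independent. Alternatives were pseudocounts of 0.1 and 0.5, no filter or a mean of at least 5, 3 other scalings (median centring, quantile normalization, totals without the 4 most abundant loci), the library letter as a block, no trend, summed entries, the groups of a comparison alone, and each library left out. The rule for named genes takes up to 8 called genes at each end of every comparison, sets of paralogs, EEF2 and EEF2K, and the up to 4 most abundant genes of each role. Other genes named, and the split by annotated start, were chosen after their values were seen. The genes, role lists and tests were chosen with earlier results of these data known. Gene coordinates are from GENCODE (GRCh38) and promoters from RefSeq (GRCh38.p14).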

Additional observations from a re-analysis of the deposited data

Results flagged for a closer look

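The radiation effect with the inhibitor was set against the effect without it by the interaction term of the same limma model, the log2 radiation effect under AZD6738 minus that under DMSO. Of the 42 genes, 30 passed, 29 lower and 1 higher, where 35.5% of all loci passed, 22.4% being lower and 13.1% higher, and each of these genes is listed because its radiation effect differed between the presence and the absence of the inhibitor. Values are interaction terms on the log2(FPKM + 1) scale. A negative term means that the log2 change with radiation lay lower with the inhibitor than without it. For a gene that falls with radiation, this is a deeper fall. Among the elongation factors they were EEF1A1 (-0.98), EEF1B2 (-1.26), EEF1D (-0.65), EEF1G (-0.78) and EEF2 (-1.27), and EEF2K had -0.26. Among the eIF3 subunits they were EIF3A (-0.61), EIF3C (-0.93), EIF3D (-0.52), EIF3E (-0.94), EIF3H (-0.68), EIF3J (-0.64), EIF3K (-0.66), EIF3L (-1.18) and EIF3M (-0.36). Among eIF2 and eIF2B they were EIF2B1 (-0.52), EIF2B3 (-0.49), EIF2B4 (-0.37), EIF2B5 (-0.26), EIF2S2 (-0.48) and EIF2S3 (-0.79). Of the tRNA delivery factors outside these complexes they were EIF2A (-0.48) and EIF2D (-0.76). In the eIF4 group they were EIF4B (-1.18), EIF4ENIF1 (0.24), EIF4G3 (-0.53) and EIF4H (-0.32), of which EIF4ENIF1 was the higher one. EIF1AX had -0.57, and EIF5A (-0.31) and EIF5AL1 (-0.37) also passed. The calls of EIF2S2, EIF5A, EIF4ENIF1, EIF2B1, EEF2K and EIF5AL1 were each lost when single libraries were left out (limma adjusted p up to 0.108, 0.127, 0.104, 0.0857, 0.0622 and 0.0722), and those of EIF2S2 and EIF5A also under 2 other scalings or more.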

How the results depend on the processing

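Over 19 alternatives (the fit of single groups cannot give the interaction), the number of the 42 genes that passed stayed within 1.5 times the reported count in each of the 6 comparisons, and it was 0 in all for AZD6738 against DMSO. With 1 library left out the count ranged from 23 to 31 for IR against DMSO, 35 to 36 for AZD6738+IR against DMSO, 25 to 31 against IR, 35 to 36 against AZD6738 and 24 to 31 for the interaction, and a lone library is then assumed to vary like the others. Other scalings moved the median of the 42 genes from -0.73 to between -0.65 and -0.61 in AZD6738+IR against DMSO, and from -0.26 to between -0.22 and -0.17 in IR against DMSO, where the median of all loci went from -0.1 to between -0.06 and -0.03. Of 4707 values of single genes, 135 lost a call and 34 gained one. Apart from these, EIF3K in IR against DMSO, at 0 as reported, was called as higher at 0.11 under quantile normalization. The cause was not tested. The library letters showed no strong shared effect: differences between A and B correlated between groups at -0.05 to 0.16. Whether the letters pair the samples is not known from the labels. With the letter as a replicate block, 30 genes passed for IR against DMSO, 35, 32 and 37 for AZD6738+IR against DMSO, IR and AZD6738, and 31 for the interaction. EIF1 then passed as lower against IR (-0.19, limma adjusted p = 0.0144) and in the interaction (-0.31, adjusted p = 0.015), as in no other alternative. Medians by start class differed by at most 0.03 with C and 3 or C and 5 pyrimidines or the first start only, which were chosen after seeing the data. Depth is unknown, so what the lowest genes (EEF1A2, EIF4E3) rest on cannot be given.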
